A study of Mus musculus with 6 samples.

Results

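The transcription factors that drive primitive streak formation were examined in mouse pluripotent cells that had not been exposed to a WNT agonist. The set held 9 genes, chosen by name from the 24736 genes of the expression table: the T-box genes T (also called Brachyury), Eomes and Tbx6, the homeobox genes Mixl1, Gsc, Evx1 and Nkx1-2, and the basic helix-loop-helix genes Mesp1 and Msgn1. The choice used no threshold on expression but was made with earlier results of these data known, and all 9 had enough counts to be tested. RNA from WT cells of the XY HM1 TetON line was sequenced in 3 biological replicates of each of 2 states. Mouse embryonic stem cells (ESCs, 0 h) were kept on a feeder layer, with 1000 U/ml of the cytokine LIF and 10% serum in the medium. Epiblast-like cells (EpiLCs, 48 h by the sample labels, whereas the culture methods give a longer time) received neither serum nor LIF but 5 µM LGK974 and 10 ng/ml bFGF, and LGK974 blocks the secretion of WNT ligands. All libraries came from 1 cell line, which limits them as a model of the embryo, and neither group received the GSK3 inhibitor that the study uses to activate WNT signalling. The comparison asks how much of the streak programme was already expressed before that step, and how far replicates of one state differed in it.

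In the embryo, the primitive streak is the site at the posterior of the epiblast where cells leave the epithelium to form mesoderm and endoderm. WNT3 and NODAL from the epiblast, with BMP4 from the neighbouring extraembryonic tissue, switch on T, Eomes and Mixl1 there, and β-catenin bound to TCF/LEF factors is the transcriptional arm of the WNT signal. Eomes, Mixl1, Gsc and Mesp1 act early, in mesendoderm, anterior streak and the first mesoderm to emerge. T marks the streak in general, while Evx1 and Nkx1-2 mark the later streak and the caudal epiblast that feeds the elongating body. Tbx6 and Msgn1 drive the presomitic fate of the progeny of the caudal epiblast.

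The libraries held between 16967741 and 35096210 expected counts, so 3 counts correspond to between 0.0855 and 0.177 CPM (counts scaled to library size), a limit for counting error only. ESC replicate 2 was the shallowest library and EpiLC replicate 1 the deepest. All 12 naive pluripotency markers examined were lower in EpiLCs and all 9 post-implantation epiblast markers were higher (edgeR, Benjamini-Hochberg adjusted p of at most 0.05, the threshold used throughout), as the labels imply. A second principal component, with 11.4% of the variance, separated ESC replicate 2 from ESC replicate 3. Fibroblast markers, which feeder cells express, were also examined. The study's methods describe the removal of feeder cells by adhesion to plastic before differentiation, and do not say whether it was applied to the ESC libraries. These markers summed to 394, 1714 and 148 TPM (transcript abundance scaled for length and library) in ESC replicates 1, 2 and 3 and to between 120.7 and 133.5 TPM in EpiLCs, with all 14 highest in ESC replicate 2. In such bulk libraries, fewer cells of a type and less RNA per cell cannot be told apart.

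Stretches of 250 bases upstream of the start site are shown for 4 of the genes whose values the text turns on. T, Mesp1 and Msgn1 are the genes that hold letters of the TCF/LEF recognition motif in the windows examined, and Nkx1-2, which had the highest level relative to ESCs in 1 EpiLC library, holds none. The sequences are from RefSeq on GRCm38.p6 (mm10), read 5′ to 3′ on the gene's strand, and capitals mark CTTTGAA or CTTTGAT on either strand.
T, chr17:8434173-8434422, plus strand: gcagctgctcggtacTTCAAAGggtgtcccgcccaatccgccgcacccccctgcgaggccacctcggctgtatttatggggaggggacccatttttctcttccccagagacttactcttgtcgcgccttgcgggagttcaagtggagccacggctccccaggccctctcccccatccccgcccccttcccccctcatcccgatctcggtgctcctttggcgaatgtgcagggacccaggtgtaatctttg
Mesp1, chr7:79793591-79793840, minus strand: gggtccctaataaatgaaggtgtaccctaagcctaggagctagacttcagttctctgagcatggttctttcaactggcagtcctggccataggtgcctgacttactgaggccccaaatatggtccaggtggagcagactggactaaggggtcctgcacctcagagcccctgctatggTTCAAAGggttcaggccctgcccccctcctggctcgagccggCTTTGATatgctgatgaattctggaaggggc
Msgn1, chr12:11208949-11209198, minus strand: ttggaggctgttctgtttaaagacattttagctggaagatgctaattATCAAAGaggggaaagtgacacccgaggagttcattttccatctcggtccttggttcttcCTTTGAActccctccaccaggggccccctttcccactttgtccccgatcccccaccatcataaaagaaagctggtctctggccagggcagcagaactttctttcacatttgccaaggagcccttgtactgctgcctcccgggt
Nkx1-2, chr7:132599638-132599887, minus strand: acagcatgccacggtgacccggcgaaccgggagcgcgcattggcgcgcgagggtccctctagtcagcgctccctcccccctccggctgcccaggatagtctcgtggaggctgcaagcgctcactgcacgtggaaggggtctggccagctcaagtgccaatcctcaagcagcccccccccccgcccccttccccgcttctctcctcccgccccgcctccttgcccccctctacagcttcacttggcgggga

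A promoter window of 300 bases, from 250 before to 50 after the start, was at hand for 8 of the 9 genes and not for Mixl1. The TCF/LEF letters occurred in 3 of the 8, against 8.65% of 32851 promoters of the same length. T held 1 match, 235 bases before its start site. Mesp1 held matches 73 and 31 bases and Msgn1 203 and 143 bases before the start. The T-box letters TCACACCT, searched on both strands, were found in Mesp1 alone of the 8, and in 1.28% of all promoters. The SOX letters CATTGTT or CATTGTC were found in 0 of the 8 and in 6.61% of all promoters, and the letters TATAAA in Tbx6 and Gsc and in 13.6% of all. Such matches describe letters in these windows and do not show binding.

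Of the 9 genes, 6 were lower in EpiLCs than in ESCs (Eomes, Mixl1, Gsc, Evx1, Mesp1 and Msgn1), 0 were higher, and T, Tbx6 and Nkx1-2 did not pass the threshold. Over all 14468 genes tested with edgeR's quasi-likelihood test, 22.8% were lower and 22.6% were higher, 45.4% in all. At an unadjusted p under 0.05, 7 of the genes were lower and 0 higher, and DESeq2 called 6 lower and 0 higher. In 8 of the 9, every EpiLC library lay below every ESC library in TPM, against 29.0% of all genes tested for which the groups did not overlap in that direction and 30.3% in the other. The median log2 fold change was -3.94 for the 9 genes and -0.0017 for all genes. Summed over the 9 genes, expression was 452, 182 and 141 TPM in ESC replicates 1, 2 and 3 and 9.94, 9.23 and 64.6 TPM in EpiLC replicates 1, 2 and 3. As a sum, the streak regulators were thus expressed in all 3 ESC cultures at levels that differed several-fold, and EpiLC replicate 3 stood apart from the other EpiLC libraries. Single genes differed in this: Gsc varied between ESC libraries by a factor of only 1.72, and Tbx6 was scarce, at 0.66 to 2.53 TPM.

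**Figure D1:**
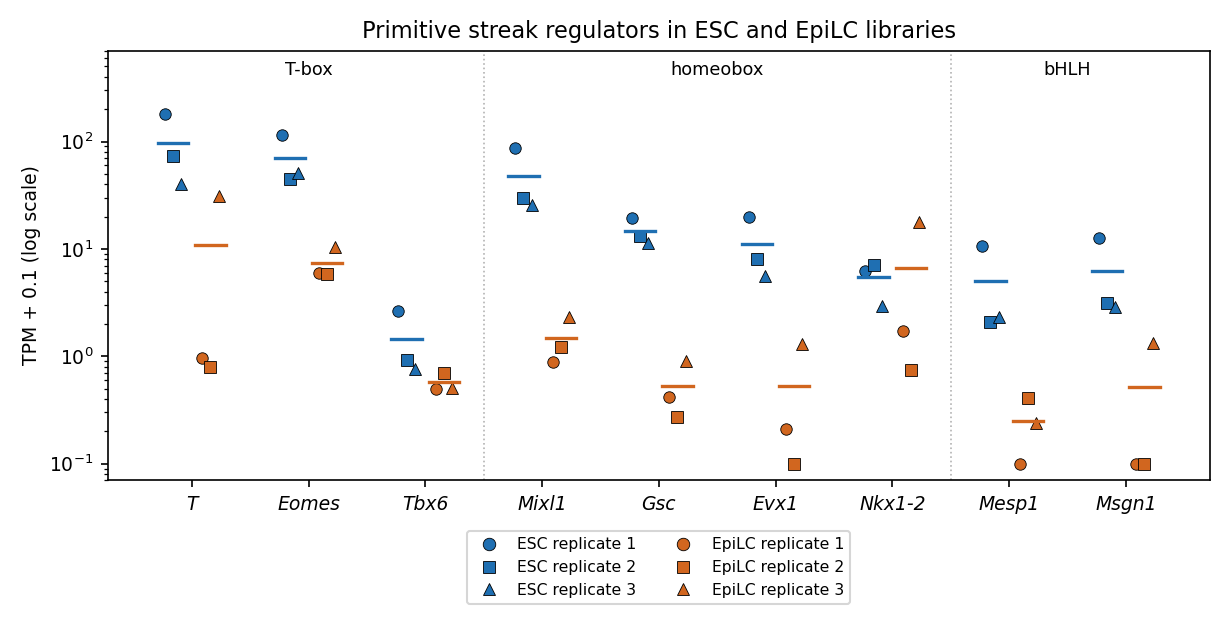
TPM of the 9 primitive streak regulators in each library, plotted as TPM + 0.1 on a log axis. Points are libraries (3 ESC and 3 EpiLC), horizontal lines are group means, and the genes are ordered by family. For T, EpiLC replicate 3 sits at 30.69 TPM, near the lowest ESC library at 40.01 TPM, while the other EpiLC libraries are below 1 TPM, and for Nkx1-2 it is above every ESC library.

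T (chr17:8434423-8442496, mm10), the founding T-box factor, which is required for mesoderm and notochord formation, was the most abundant of the 9 in ESC replicates 1 and 2. It was expressed at 179.9, 73.02 and 40.01 TPM in ESC replicates 1, 2 and 3, from 3762, 1167 and 1087 counts. The EpiLC libraries held 0.87, 0.69 and 30.69 TPM in replicates 1, 2 and 3, from 29, 22 and 892 counts. All ESC libraries were above all EpiLC libraries, but the lowest ESC library exceeded EpiLC replicate 3 by a factor of only 1.304, and in CPM that EpiLC library was 35.2 times the higher of the other EpiLC libraries. The ESC mean was 97.7 ± 73.2 TPM and the EpiLC mean 10.8 ± 17.3 TPM (SD, n = 3 each). The log2 fold change was -3.23 (standard error 1.36), which did not pass the threshold in edgeR (adjusted p = 0.0925). Without EpiLC replicate 3 it was -7.00 (standard error 0.89, edgeR adjusted p = 0.00399), so the edgeR call for T rested on that library. The call also depended on the method, since limma on log2(TPM + 1) passed the threshold with all 6 libraries (-4.14, adjusted p = 0.0246). Among all genes of the table, T ranked above 96.3%, 90.1% and 84.1% of genes in the ESC libraries, above 48.4% and 46.7% in EpiLC replicates 1 and 2 and above 80.7% in EpiLC replicate 3.

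Eomes (chr9:118478186-118486132), the T-box factor needed for definitive endoderm and for the exit of mesoderm from the epiblast, was the other abundant member. Its levels were 114.8, 45.12 and 50.69 TPM in ESC replicates 1, 2 and 3 and 5.83, 5.70 and 10.38 TPM in EpiLC replicates 1, 2 and 3. The lowest ESC library was 4.35 times the highest EpiLC library. Eomes fell by 3.32 on the log2 scale (standard error 0.44, edgeR adjusted p = 0.00137), from 70.2 ± 38.7 to 7.30 ± 2.67 TPM (n = 3 each). It was the most abundant of the 9 genes in EpiLC replicates 1 and 2, where it made up 58.7% and 61.8% of their summed TPM, whereas in EpiLC replicate 3 its share was 16.1% and that of T was 47.5%.

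Tbx6 (chr7:126781483-126785548), which directs paraxial mesoderm fate, was scarce in both states. ESC replicates 1, 2 and 3 held 2.53, 0.83 and 0.66 TPM, and EpiLC replicates 1, 2 and 3 held 0.40, 0.60 and 0.41 TPM. These values rest on between 10 and 44 counts per library. The groups did not overlap, but the lowest ESC and highest EpiLC libraries differed by a factor of 1.10. The log2 fold change of -1.54 (standard error 0.57) did not pass the threshold (edgeR adjusted p = 0.0620), but it passed without ESC replicate 2 (edgeR adjusted p = 0.0454) or without ESC replicate 3 (adjusted p = 0.0268). Without ESC replicate 1 the log2 fold change was -0.71 (edgeR adjusted p = 0.191), and without any single EpiLC library the threshold was not passed. Tbx6 was 1 of the 2 members in which EpiLC replicate 3 was not the highest EpiLC library.

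Mixl1 (chr1:180693043-180697034), a paired-like homeobox gene of the streak with a role in endoderm formation, had 86.83, 29.75 and 25.33 TPM in ESC replicates 1, 2 and 3. In EpiLC replicates 1, 2 and 3 it had 0.78, 1.12 and 2.21 TPM. The lowest ESC library was 11.5 times the highest EpiLC library. It fell by 5.17 on the log2 scale (standard error 0.64, edgeR adjusted p = 0.00107), with a log2 fold change of -4.40 without ESC replicate 1. Gsc (chr12:104471209-104473236), the organiser and anterior streak homeobox gene, had 19.38, 13.01 and 11.28 TPM in ESC replicates 1, 2 and 3. Its EpiLC values were 0.32, 0.17 and 0.80 TPM in the same order. It had the smallest spread among ESC libraries of the 9 genes, with a highest to lowest ratio of 1.72, and fell by 5.12 on the log2 scale (standard error 0.51, edgeR adjusted p = 4.66e-04), with -5.88 without EpiLC replicate 3. In EpiLCs its counts were 6, 3 and 13, so that its level there was close to the limit of detection.

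Evx1 (chr6:52313498-52318389), a homeobox gene of the posterior streak, had 19.55, 8.01 and 5.44 TPM in ESC replicates 1, 2 and 3. In EpiLC replicates 1, 2 and 3 it had 0.11, 0 and 1.19 TPM, from 5, 0 and 49 counts. EpiLC replicate 3 was thus again the highest EpiLC library, at 11.2 times the higher of the others in CPM, yet it stayed below the lowest ESC library by a factor of 4.57. Evx1 fell by 4.74 on the log2 scale (standard error 1.14, edgeR adjusted p = 0.0142), a call that was lost without EpiLC replicate 1 (adjusted p = 0.0573). Without EpiLC replicate 3 the log2 fold change was -7.63 (edgeR adjusted p = 0.00555), and it was -4.04 without ESC replicate 1 and -4.14 without EpiLC replicate 2. The -7.63 rests on 5 and 0 EpiLC counts of Evx1, and its size is uncertain. The antisense transcript Evx1os overlaps it on the opposite strand, and the authors' counting used strand. Evx1os was listed at 6.51, 2.39 and 2.32 TPM in the ESC libraries and at 0.13, 0.04 and 0.72 TPM in the EpiLC libraries, in the same order of EpiLC libraries as Evx1.

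Nkx1-2 (chr7:132596239-132599637), a homeobox gene of the caudal epiblast and early neural plate, differed from the other 8 genes. Its levels were 6.19, 7.02 and 2.82 TPM in ESC replicates 1, 2 and 3 and 1.63, 0.64 and 17.55 TPM in EpiLC replicates 1, 2 and 3. EpiLC replicate 3, with 473 counts, was above all 3 ESC libraries, while EpiLC replicates 1 and 2, with 50 and 19 counts, were below all of them, so that the groups overlapped. The ESC mean was 5.34 ± 2.22 TPM and the EpiLC mean 6.61 ± 9.49 TPM (n = 3 each). The log2 fold change of 0.28 (standard error 1.09, edgeR adjusted p = 0.850) became -2.26 without EpiLC replicate 3 (standard error 0.59, edgeR adjusted p = 0.0326), and its sign changed in several other fits given in the closing section. No direction can therefore be given for this gene. In GENCODE, Fgfr2 overlaps Nkx1-2 on the same strand, but its RefSeq span, the annotation used for counting, does not. Fgfr2 had 15.98, 9.12 and 14.25 TPM in EpiLC replicates 1, 2 and 3, so replicate 3 was not its highest library.

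Mesp1 (chr7:79792241-79793590), a basic helix-loop-helix factor of the earliest, cardiogenic mesoderm, was present at 10.44, 1.97 and 2.24 TPM in ESC replicates 1, 2 and 3. In EpiLC replicates 1, 2 and 3 it was listed at 0, 0.31 and 0.14 TPM, from 0, 5 and 2 counts. ESC replicate 1 had 4.66 times the next ESC library, and EpiLC replicate 3 was not the highest EpiLC library. Mesp1 fell by 5.02 on the log2 scale (standard error 1.03, edgeR adjusted p = 0.00775), and its log2 fold change was -3.84 without ESC replicate 1, -4.43 without EpiLC replicate 1 and -6.09 without EpiLC replicate 2. Msgn1 (chr12:11208382-11208948), the presomitic mesoderm regulator downstream of WNT and Tbx6, had 12.44, 3.01 and 2.80 TPM in ESC replicates 1, 2 and 3, from 65, 12 and 19 counts. It was at 0, 0 and 1.24 TPM in EpiLC replicates 1, 2 and 3, where the last value comes from 9 counts and is at least 3.32-fold higher than the 3-count limit of the other EpiLC libraries in CPM. Its log2 fold change was -3.94 (standard error 1.17, edgeR adjusted p = 0.0309), and the call was lost without ESC replicate 1 (adjusted p = 0.103), EpiLC replicate 1 (adjusted p = 0.0961) or EpiLC replicate 2 (adjusted p = 0.0918). Against EpiLC replicates 1 and 2 alone, in which no count was seen, the ESC mean of 1.44 CPM corresponds to at least 16.3-fold lower expression in EpiLCs at 3 counts per library, and to at least 7.78-fold without ESC replicate 1.

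**Figure D2:**
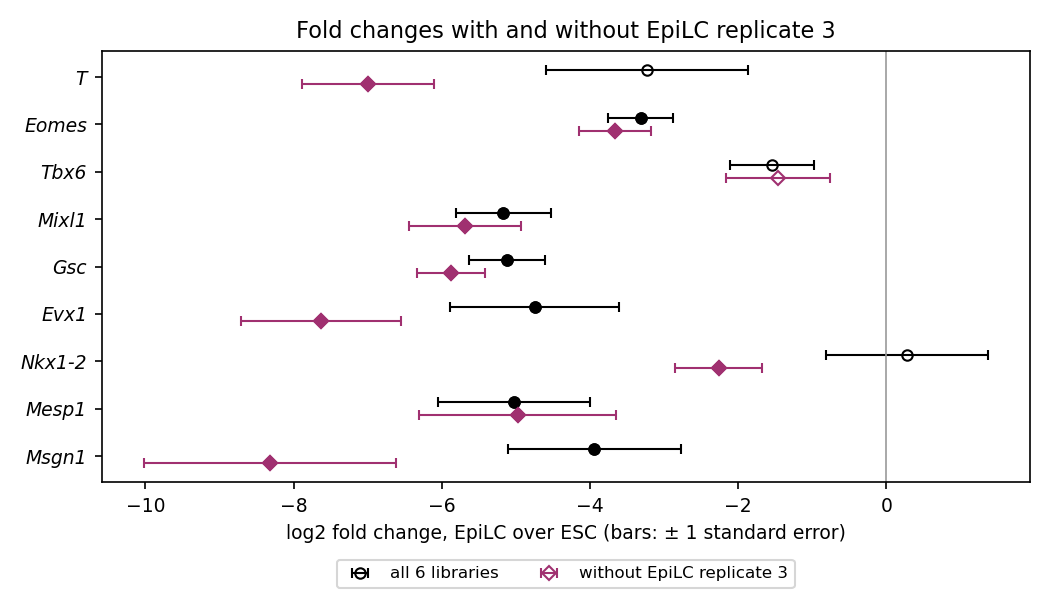
Log2 fold change of each gene, EpiLC over ESC, from edgeR with all 6 libraries (circles) and without EpiLC replicate 3 (diamonds). Bars are ± 1 standard error, derived from the F statistic of the test, and filled symbols passed an adjusted p of 0.05. T moved from -3.23 to -7.00, Evx1 from -4.74 to -7.63 and Nkx1-2 from 0.28 to -2.26, whereas Eomes (-3.32 and -3.66) and Mesp1 (-5.02 and -4.97) moved little. Without that library, the fitted value of Msgn1 is set against EpiLC libraries with no count, and that of Evx1 against 5 and 0 counts.

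Without EpiLC replicate 3, 8 of the 9 genes were lower in EpiLCs, with Tbx6 the exception (edgeR adjusted p = 0.156), whereas 4 were lower without EpiLC replicate 1 and 5 without EpiLC replicate 2 or without ESC replicate 1, and in the fit without EpiLC replicate 3 17.2% of 14759 genes tested were lower and 17.8% higher. The plot of fold changes shows that the error of T fell with the removal of that library from 1.36 to 0.89 and that of Nkx1-2 from 1.09 to 0.59, while those of Eomes and Mesp1 rose. EpiLC replicate 3 was singled out for its high T, Nkx1-2 and Evx1. The smaller errors and lower fold changes of T and Nkx1-2 without it therefore follow from that choice.

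The spread between replicates was large for these genes. The SD of log2 CPM between the 3 ESC libraries had a median of 0.954 over the 9 genes and 0.197 over all genes tested. Between the EpiLC libraries it was 0.829 over the 9 genes and 0.107 over all genes tested. Within EpiLCs, the SD of T lay above that of 99.97% of tested genes and those of Evx1 and Nkx1-2 above 99.92%. Within ESCs, the SD of Mesp1 lay above 97.9% and that of Gsc, the least variable of the 9, above 74.6%.

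The ESC libraries had a common order. ESC replicate 1 was the highest ESC library for 8 of the 9 genes, all but Nkx1-2, against 25.5% of all genes tested. It exceeded both other ESC libraries at least 2-fold in log2 CPM for 7 of the 9, against 0.857% of all genes. ESC replicate 3 was lowest for 7 genes, and ESC replicate 2 for Eomes and Mesp1. The order with replicate 1 highest and replicate 3 lowest held for 6 of the 9 genes and for 11.5% of all genes. Naive markers did not share this order: their summed TPM was 2257, 2392 and 3096 in ESC replicates 1, 2 and 3, and 0 of 12 were highest in replicate 1. Fibroblast markers had ESC replicate 2 highest and 0 of 14 highest in replicate 1, and their part in the levels of the streak regulators was not tested. Primitive endoderm markers, a cell type that can arise in ESC cultures, summed to 127, 147 and 76.9 TPM in ESC replicates 1, 2 and 3, with 4 of 10 highest in replicate 1 and 4 in replicate 2. Gata6 (14.96, 7.40 and 7.84 TPM) and Pdgfra (16.8, 6.76 and 7.09 TPM) were highest in replicate 1. By contrast, Lama1 (13.42, 21.62 and 20.88 TPM) and Col4a1 (45.73, 81.69 and 21.79 TPM) were highest in replicate 2. Ttr and Afp were listed at 0 in all ESC libraries, and the part of that cell type was not tested. Of the post-implantation epiblast markers, 6 of 9 were highest in ESC replicate 1, among them Lef1 at 39.19, 19.17 and 16.81 TPM in ESC replicates 1, 2 and 3. Their summed TPM was 722, 592.3 and 762.8 in the same order, and so was highest in replicate 3. Otx2 (50.8, 29.08 and 57.78 TPM) was also highest in replicate 3, and Dnmt3b (289.6, 214.6 and 289.1 TPM) was nearly level between replicates 1 and 3. These marker examples were chosen after their values were seen.

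EpiLC replicate 3 was the highest EpiLC library for 7 of the 9 genes, against 36.3% of all genes tested. It was at least 4 times both other EpiLC libraries for T, Nkx1-2 and Evx1, whereas the ratio to the higher of the others was between 1.78 and 2.48 for Eomes, Mixl1 and Gsc. T and Nkx1-2 together made up 74.7% of the summed TPM of the 9 genes in EpiLC replicate 3, and 25.2% and 14.4% in EpiLC replicates 1 and 2. Over all genes tested, 15 (0.104%) were at least 4 times both other EpiLC libraries in replicate 3, against 1 gene (0.00691%) in replicate 1 and 7 genes (0.0484%) in replicate 2. The 15 genes comprised 3 of the streak regulators and 5 genes of the pathway lists given below (Sp5, Fgf8, Sp8, Rspo3 and Cdx2, of which Sp8 and Cdx2 were named after their values were seen).

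The gaps among the 15, as log2 differences from the higher of the other EpiLC libraries, included those of T (5.03), Sprr2a1 (4.46), Sprr2a2 (4.46) and Sp5 (4.42). Sprr2a1 and Sprr2a2, which encode small proline-rich proteins, are near-identical copies with the same TPM in every library, so that reads shared between them make these values uncertain. Sp5, a zinc-finger factor directly induced by WNT signalling, had 0.09, 0 and 3.39 TPM in EpiLC replicates 1, 2 and 3. Fgf8, the streak FGF ligand, had 0.25, 0.39 and 4.11 TPM there. Both were far below their lowest ESC libraries, at 23.61 and 35.55 TPM. Of the 15 genes, 8 were below every ESC library in EpiLC replicate 3, and 3 were above every ESC library. These 3 were Nkx1-2, the caudal regulator Cdx2 (7.63 TPM, against 1.79 to 7.24 TPM in ESCs) and the posterior Hox gene Hoxb8 (1.87 TPM, against 0.23 to 0.82 TPM in ESCs), the last named after its values were seen. ESC replicate 1 was the highest ESC library for 12 of the 15, against 25.5% of all genes tested. The 15 genes were selected for being high in EpiLC replicate 3. The share of all genes above or below every ESC library in that library was not counted.

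**Figure D3:**
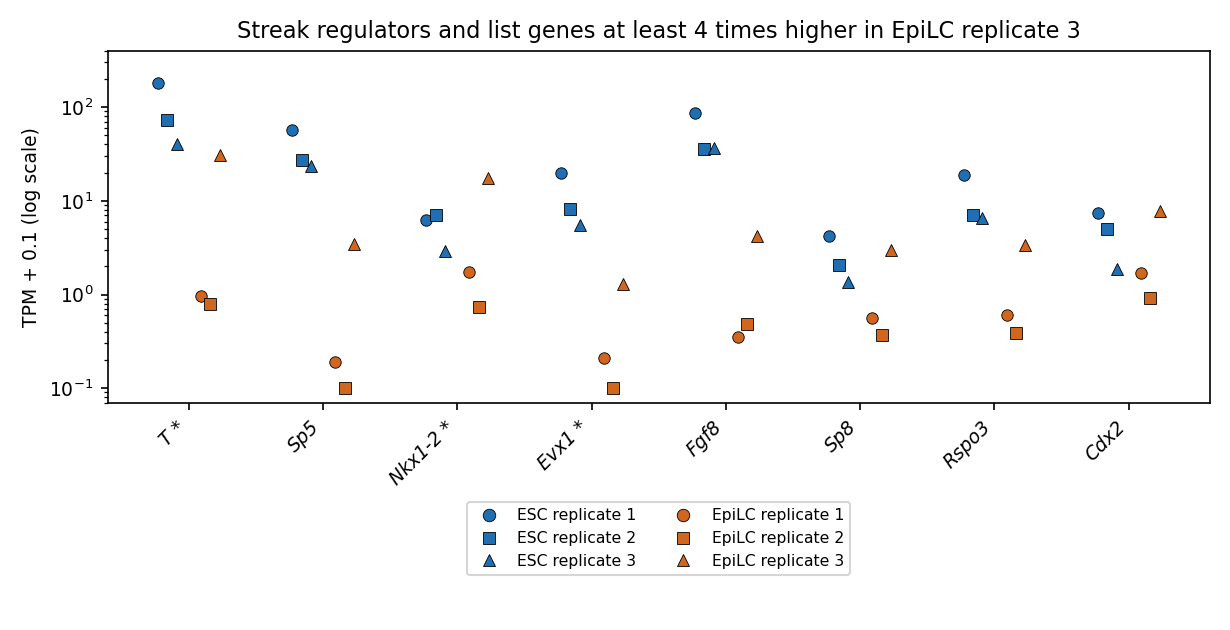
TPM + 0.1 on a log axis in each library for the 3 streak regulators and the 5 genes of the pathway lists that were at least 4 times higher in EpiLC replicate 3 than in both other EpiLC libraries, ordered by the size of that gap (asterisks mark the streak regulators). Blue points are ESC and orange points EpiLC libraries. Nkx1-2 and Cdx2 are the genes plotted whose EpiLC replicate 3 lies above all ESC libraries.

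Marker sums of EpiLC replicate 3 were also examined. Its post-implantation markers summed to 2940 TPM, against 2862 and 2971 TPM in replicates 1 and 2, and its naive markers to 132.4 TPM, against 102.4 and 112.6 TPM. Of the 12 naive markers, 6 were highest in replicate 3 among the EpiLC libraries. Examples chosen after their values were seen are Nanog, at 7.72, 5.95 and 22.48 TPM in EpiLC replicates 1, 2 and 3, and Klf5, at 30.69, 39.81 and 19.60 TPM. Of the 9 neural progenitor markers, 5 were highest in replicate 3, although Nes, the most abundant, was lowest there, at 78.64, 89.28 and 54.46 TPM. Its total of 30683164 counts lay within the range of the series. Its fibroblast markers were the lowest of the 3 EpiLC libraries, at 120.7 TPM.

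Genes were also ranked by how closely their log2 CPM, centred on each gene's mean, followed that of T over the 6 libraries. Over the 13011 genes that reached 1 CPM on average, the smallest root-mean-square differences from T were those of Sprr2a1 and Sprr2a2 (0.323 each), Sprr2a3 (0.571), Evx1 (0.676) and Aplnr (0.8003), which encodes the apelin receptor. Aplnr had 19.7, 2.65 and 6.38 TPM in ESC replicates 1, 2 and 3 and 0.15, 0.07 and 2.94 TPM in EpiLC replicates 1, 2 and 3. Among the 9 genes themselves, the closest pairs were Mixl1 with Gsc (0.458), Eomes with Msgn1 (0.556) and T with Evx1 (0.676). Mesp1 was nearest to Eomes (0.697). Tbx6 and Nkx1-2 had no close partner, at 1.11 from Eomes and 1.51 from Msgn1, and Tbx6 was the farthest from T (2.60). These distances describe 6 libraries and carry no test.

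The signals that act on these genes were mostly lower in EpiLCs as well. Of 12 streak ligands and cofactors, 8 were lower and 0 higher (edgeR over all genes; at an unadjusted p under 0.05 and in DESeq2 also 8 and 0), with a median log2 fold change of -2.33. Tdgf1, the NODAL co-receptor also called Cripto, fell by 5.03 on the log2 scale, from 652.7, 415.7 and 606.9 TPM to 10.01, 18.32 and 24.79 TPM. The log2 fold change was -5.07 for Fgf8 (edgeR adjusted p = 0.00526), -3.36 for Bmp4 and -3.35 for Wnt3, the WNT ligand that starts the streak. Wnt3 had 30.43, 15.66 and 12.01 TPM in ESC replicates 1, 2 and 3 and 1.19, 1.34 and 3.37 TPM in EpiLC replicates 1, 2 and 3, and so shared with T the order of ESC libraries and the high EpiLC replicate 3. Nodal, named after its values were seen, had 77.20, 62.64 and 53.87 TPM in ESCs and 4.59, 5.33 and 10.68 TPM in EpiLCs, again with ESC replicate 1 and EpiLC replicate 3 highest. ESC replicate 1 was the highest ESC library for 7 of the 12 signals and EpiLC replicate 3 the highest EpiLC library for 10 of the 12. Among the 4 signals that did not pass the threshold were Wnt3a and Wnt8a (edgeR adjusted p = 0.624 and 0.646), named after their values were seen. Wnt8a had 9.20, 3.93 and 5.58 TPM in ESC replicates 1, 2 and 3, and 10.28 TPM in EpiLC replicate 3 lay above all of them. LGK974 acts on the secretion of WNT proteins, which these RNA measurements do not show.

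Of 9 antagonists of these signals, 5 were lower and 1 was higher, and the median log2 fold change was -2.55. The log2 fold change was -5.51 for Lefty2 and -3.36 for Lefty1, which encode NODAL inhibitors, -3.85 for the WNT inhibitor Dkk1 and -2.55 for the BMP inhibitor Nog, the last at an adjusted p of 0.0496. Lefty2, for example, had 91.22, 82.24 and 103.2 TPM in ESC replicates 1, 2 and 3 and 1.41, 0.86 and 4.1 TPM in EpiLC replicates 1, 2 and 3. Sfrp2, which encodes a secreted WNT-binding protein, went the other way, from 14.7 ± 3.03 to 39.3 ± 4.39 TPM (n = 3 each), a log2 fold change of 1.36 (edgeR adjusted p = 0.00118). EpiLC replicate 3 was the highest EpiLC library for all 9 antagonists, while ESC replicate 1 was highest for 3 of them.

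Among 23 other transcription factors of the streak, caudal epiblast and mesendoderm, 21 could be tested, 15 were lower and 1 was higher, with a median log2 fold change of -2.34. The largest falls, as log2 fold changes, were those of Tbx3 (-6.59), which is also a naive pluripotency gene, of Lhx1 (-5.65), an anterior mesendoderm factor, of the caudal factor Cdx1 (-5.10) and of Sp5 (-5.03). Foxh1, the DNA-binding partner of SMADs downstream of NODAL, was the exception, from 79.5 ± 10.1 to 123 ± 10.4 TPM (n = 3 each), a log2 fold change of 0.58 (edgeR adjusted p = 0.00571). Of 12 presomitic and paraxial mesoderm genes, 10 could be tested, 4 were lower and 0 higher (edgeR; at an unadjusted p under 0.05, 5 and 0, and in DESeq2, 4 and 0), with a median of -1.10. Their log2 fold changes were -5.42 for Cyp26a1, which encodes an enzyme that degrades retinoic acid, -3.04 for the R-spondin gene Rspo3, -2.39 for Ripply1 and -1.09 for the Notch ligand gene Dll1.

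Of 11 WNT/β-catenin readouts, all tested, 6 were lower, 1 was higher and 4 did not pass the threshold. The median log2 fold change was -0.26. Axin2, the feedback inhibitor commonly used as a readout and named here after its values were seen, had 48.78, 33.09 and 28.99 TPM in ESC replicates 1, 2 and 3 and 8.04, 8.85 and 13.17 TPM in EpiLC replicates 1, 2 and 3, and fell by 1.93 on the log2 scale (edgeR adjusted p = 0.00143). Its order of ESC libraries was that of T, and EpiLC replicate 3 was again the highest EpiLC library, at well under the lowest ESC library. Of the 11 readouts, ESC replicate 1 was highest for 7 and ESC replicate 2 for 4, and EpiLC replicate 3 was the highest EpiLC library for 7. The largest falls were those of Cdx1 (-5.10), Sp5 (-5.03), Notum (-4.19), a secreted WNT inhibitor, and Dkk1 (-3.85). Notum had 18.04, 28.55 and 14.96 TPM in ESC replicates 1, 2 and 3, with replicate 2 highest. Lef1, which encodes a WNT-responsive transcription factor and is also a post-implantation epiblast gene, rose from 25.1 ± 12.3 to 79.1 ± 10.4 TPM (n = 3 each), a log2 fold change of 1.57 (edgeR adjusted p = 0.00699).

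Within the T-box family of 17 genes, which includes T, Eomes and Tbx6, 12 could be tested, 6 were lower and 3 higher, with a median log2 fold change of -1.41. After Tbx3, the lowest log2 fold changes among those past the threshold were those of Eomes (-3.32), Tbx2 (-2.69) and Tbx15 (-2.10). The 3 that rose, Tbx22 (4.16), Tbx21 (1.58) and Tbx4 (1.24), were at no more than 1.33 TPM in any library.

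**Figure D4:**
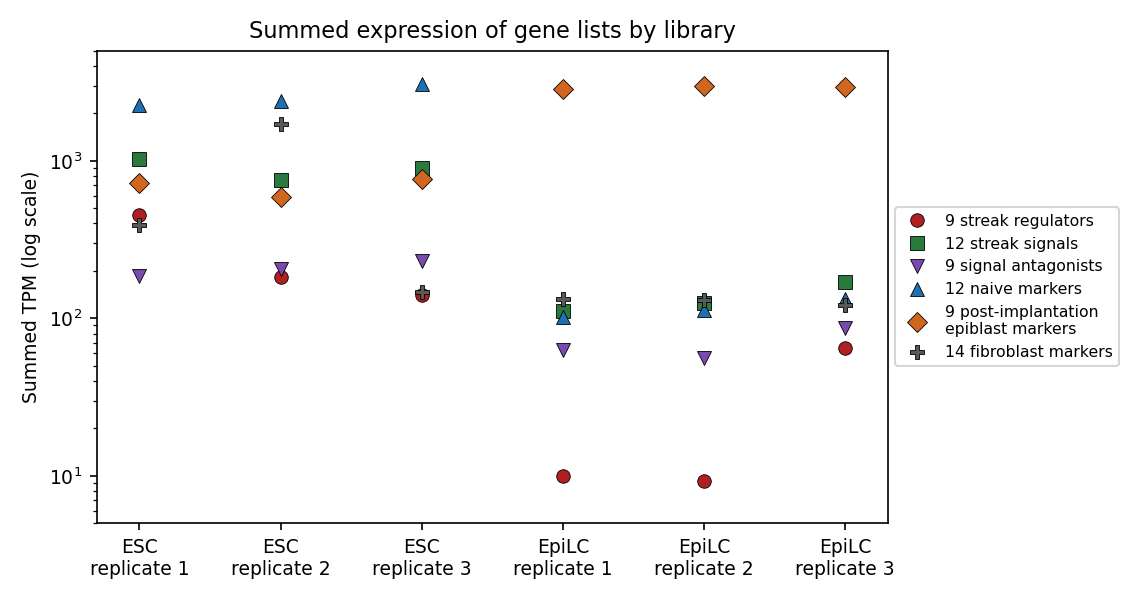
Summed TPM of the 9 streak regulators and of 5 gene lists in each library, on a log axis. The streak regulators range from 141 to 452 TPM in ESCs and from 9.23 to 64.6 TPM in EpiLCs, with EpiLC replicate 3 apart from the others, while the post-implantation markers lie between 2862 and 2971 TPM in all EpiLC libraries and the fibroblast markers peak in ESC replicate 2 at 1714 TPM.

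Neural progenitor markers gave no call in either direction among the 5 of 9 that could be tested in edgeR, whereas at an unadjusted p under 0.05 2 were higher and 1 lower, and in DESeq2 1 was higher and 1 lower. Their summed TPM was between 31.7 and 63.05 in ESCs and between 63.3 and 93.1 in EpiLCs. Of the primitive endoderm markers, 8 of 10 could be tested and 5 were lower in EpiLCs, and of the fibroblast markers 12 of 14 could be tested and 6 were lower, or 3 without EpiLC replicate 1 and 3 without EpiLC replicate 3. Markers of both cell types were thus also lower in EpiLC libraries where they passed the test, and their part in the fall of the streak regulators was not tested.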

How the data were processed

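RNA was sequenced from 3 ESC and 3 EpiLC cultures, labelled as biological replicates, so p-values concern the spread between these cultures of 1 line. The authors trimmed polyA-selected, single-end reads with cutadapt 1.16, mapped them with STAR 2.5.2a and counted them with RSEM 1.3.0 against mm10 RefSeq genes, with strand. The expected counts the authors deposited are unnormalized and divide reads shared between genes, so copies such as Sprr2a1 and Sprr2a2 are uncertain. Between 4.27% and 4.65% of values per library were not whole. The authors also deposited TPM, scaled by RSEM for transcript length and library. The submitters' notes name DESeq2 1.16.1.

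Expected counts were rounded and tested with edgeR 4.0.16 (R 4.3.3): quasi-likelihood test, TMM factors from 0.979 to 1.02, filterByExpr (14468 of 24736 genes kept), Benjamini-Hochberg adjustment over all genes, threshold 0.05, no covariate. The standard error printed with an edgeR fold change is the absolute log2 fold change divided by the square root of the test's F statistic. Library orders and distances used log2 CPM with a prior count of 2. A gap of EpiLC replicate 3 meant at least 4 times both other EpiLC libraries and at least 1 CPM. Promoters and gene positions came from RefSeq, GRCm38.p6, with 8 of 9 genes matched to a promoter. The text names the 9 genes, up to 4 rises and 4 falls of each pathway list, up to 3 examples of a marker list and any gene against its majority, the 5 genes nearest to T and the 5 largest gaps (1 of them is not reported here), and marks other names as chosen after their values were seen. The 9 genes and all lists were chosen with earlier results of these data known. Alternatives were DESeq2 1.42.0, other scalings and filters, limma 3.58.1 on log2(TPM + 1) and log2(TPM + 0.1), the replicate number as a block, and leaving out each library.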

Additional observations from a re-analysis of the deposited data

How the results depend on the processing

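The count of streak regulators lower in EpiLCs stayed at 6 with DESeq2, DESeq2 size factors, upper-quartile normalization and no filter on low counts, and was 2 with at least 10 counts in every library, where Gsc, Evx1, Mesp1 and Msgn1 were no longer tested. That filter also left 3 antagonists, 9 other transcription factors and 2 WNT readouts lower and 1 T-box gene higher, as fewer genes were tested, and no filter gave 1 presomitic gene higher. T passed the threshold with limma on log2(TPM + 1) (-4.14, adjusted p = 0.0246) and log2(TPM + 0.1) (-4.82, adjusted p = 0.0251); the cause was not tested. Nkx1-2 changed sign with limma, to -0.49 and -0.84, without ESC replicate 3, to -0.03, and without EpiLC replicate 3, to -2.26, and DESeq2 gave it no adjusted p.

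Deviations of same-numbered libraries correlated at 0.00668, 0.186 and 0.171, so the numbers were not taken as pairs. With the replicate block 6085 genes changed, against 6571, and 5 regulators were lower. Msgn1 was then -3.83 (edgeR adjusted p = 0.0523), Nkx1-2 was -1.002 (adjusted p = 0.563), T moved to -4.85 (adjusted p = 0.0746), and no call of another regulator changed. ESC replicates 2 and 3 correlated best with their own number, and replicate 1 did not.

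With single libraries left out, 4244 to 7181 genes changed, 2144 to 3572 higher and 2100 to 3609 lower, fewest without EpiLC replicate 1. Between 4 and 8 regulators were lower, 4 without EpiLC replicate 1 and 8 without EpiLC replicate 3, and 0 higher. Log2 fold changes ranged from -7.00 to -2.45 for T, -1.89 to -0.71 for Tbx6, -7.63 to -4.04 for Evx1, -8.32 to -2.90 for Msgn1, -2.26 to 0.82 for Nkx1-2, -3.66 to -2.79 for Eomes, -5.69 to -4.40 for Mixl1, -5.88 to -4.72 for Gsc and -6.09 to -3.84 for Mesp1, of which these last 4 kept their call. Mesp1 moved most without ESC replicate 1 (-3.84), EpiLC replicate 2 (-6.09) and EpiLC replicate 1 (-4.43), Mixl1 without ESC replicate 1 and Gsc without EpiLC replicate 3 (-5.88). The fitted -8.32 depends on the prior count and is no bound. Presomitic genes were 0 to 1 higher and 2 to 6 lower. Genes under about 10 counts, as Mesp1, Msgn1 and Gsc in EpiLCs and Evx1 in EpiLC replicates 1 and 2, are limited by depth.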
